A study of Mus musculus with 48 samples.

Results

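The genes described here are 396 protein-coding mouse genes that share at least 200 exonic bases, summed over all such neighbours, with exons of protein-coding genes on the opposite strand and had a mean of at least 100 raw counts over 48 amygdala RNA samples. They were taken from the 21683 protein-coding genes of GENCODE release M21 in a table of 48440 genes, of which 1604 share that many bases. *Lars2*, *Fars2*, *Gigyf2*, *Parpbp*, *Ube3a*, *Copg2*, *Igf2r*, *Blcap* and the mitochondrially encoded genes were left out by the rule. The members were thus chosen by their counts over all samples, and their levels are given as a description, without a test.

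The study asked how maternal separation (MS) and a lack of serotonin in the brain act together. All mice were adult males of 4 months on the C57BL/6N strain, born to *Tph2*+/- parents, and 8 mice were in each of 6 groups. *Tph2* encodes the enzyme that makes serotonin in the brain, and the genotypes were *Tph2*+/+ (both copies intact), *Tph2*+/- (1 intact copy) and *Tph2*-/- (no intact copy). In each genotype, MS mice had been taken from the dam for 3 h per day from postnatal day 2 to 15, and control (C) mice had been left with her.

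Several features of the whole data set bear on every value below. Each sample held 609489 to 6296568 counts on genes (median 738490), and the members held 75378 to 187160 of them, or 1.20% to 21.2% (median 20.04%). With *Gm42418* and *Lars2* left out of the total, the members held 17.3% to 22.3%. In the median sample 97.5% of the read pairs with a unique position were assigned to no gene. *Tph2* itself had 0 or 1 count in each sample, too few to check a genotype, and markers of neurons (median of their mean counts 3.13) and of amygdala neurons (0.99) were near 0, so that the tissue could not be checked either. In a list of 36 genes known to be abundant in brain the median was 7.65 counts, and in 8 lists of markers of glia, vessels, choroid plexus, hypothalamic neurons and blood it lay between 0 and 9.08. The library kit keeps the strand of the RNA, but the strand setting of the counting was not given in the sources used here. Whether the counts assigned to a member came from its own RNA or from that of the gene opposite to it cannot be told apart from counts per gene, and the levels of all members are uncertain in that sense.

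As background, genes on opposite strands of one stretch of DNA can overlap in several layouts. Convergent genes run toward each other and overlap at their 3′ ends, mostly in their 3′ untranslated regions (3′ UTRs), where the RNAs are complementary and could pair. Divergent genes run apart from a shared control region, often a CpG-rich promoter, and overlap at their 5′ ends, and such pairs are frequent among housekeeping genes. Transcripts from the opposite strand of a gene, called antisense transcripts, are known to influence its transcription, splicing or RNA stability.

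For all 396 members a window of 30 bases in the overlap was read from the transcript sequences of both genes, and all 396 pairs of windows were reverse complements of each other. The last 30 bases of 2 convergent pairs are shown as examples, because most members overlap the gene opposite to them at their 3′ ends. How many members share their last 30 bases was not counted. In another pair read, *Map3k15* and *Pdha1*, the end of *Pdha1* lies under no exon of *Map3k15*. Coordinates are on GRCm38, each sequence is written 5′ to 3′ on its own strand, and capitals mark the hexamer AATAAA, the common signal for 3′ end cutting. The ends lie on chr1:164437271-164437300 (plus strand) for *Nme7*, on chr1:164437109-164437138 (minus strand) for *Atp1b1*, on chr6:92169525-92169554 (minus strand) for *Mrps25* and on chr6:92173028-92173057 (plus strand) for *Nr2c2*, and all of them lie under exons of the other gene.
Nme7: ttcaaAATAAAgatttttattttcaaacaa
Atp1b1: acaacggacAATAAAagaatgaacacattc
Mrps25: agcttttgtcttaattttgaatacatacat
Nr2c2: ggtttatactattaaagtaaattcaagact
On its own strand, the hexamer was in the last 30 bases of 137 of the 319 members whose 3′ ends overlap (42.9%), of 49.5% of their main opposite genes and of 11090 of all 21618 protein-coding genes read (51.3%). Its absence says only that these letters are not in that window.

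In *Gm20721*, the member with the most counts, the overlap runs through coding sequence. *Gm20721* is a predicted gene on the minus strand of chromosome 2 (174330319 to 174346712) within *Gnas*, which encodes the stimulatory G protein alpha subunit, and 939 of its coding bases lie under coding exons of *Gnas*. The 60 bases of chr2:174345442-174345501 are coding in both genes and are shown from each strand.
Gm20721: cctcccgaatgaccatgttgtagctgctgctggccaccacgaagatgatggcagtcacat
Gnas: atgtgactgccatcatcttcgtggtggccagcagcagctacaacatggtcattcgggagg

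Protein-coding genes reached a mean of 100 counts more often the more of their exonic bases lay opposite to another protein-coding gene. The share was 55 of 16420 genes (0.335%) among those with no opposite exon of any kind and 29 of 2481 (1.17%) among those opposite to other gene types only. It was 16 of 306 (5.23%) with 1 to 49 opposite bases, 84 of 855 (9.82%) with 50 to 199, 109 of 775 (14.1%) with 200 to 499, 117 of 402 (29.1%) with 500 to 999, 115 of 298 (38.6%) with 1000 to 1999 and 55 of 125 (44.0%) with 2000 or more. The median of the mean counts rose over the same classes from 0.375 to 59.1. Of the 580 protein-coding genes that reached the limit, 396 are the members, 100 share 1 to 199 bases and 55 have no opposite exon. These shares use the level that chose the members, and bases are not independent of gene length.

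**Figure D1:**
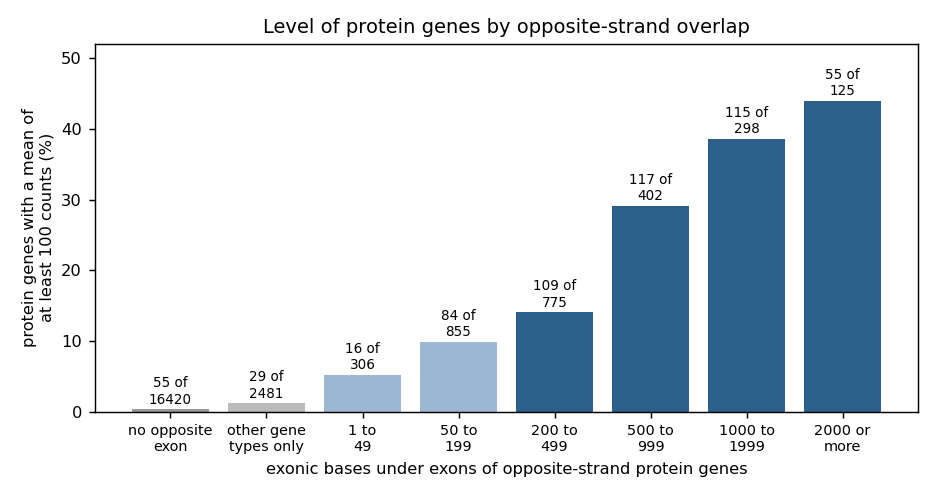
Share of protein-coding genes with a mean of at least 100 counts over the 48 samples (vertical axis, %) by the number of exonic bases under exons of opposite-strand protein-coding genes (horizontal axis). Dark bars are the classes that hold the members. The share rises from 0.335% (55 of 16420 genes) to 44.0% (55 of 125 genes).

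The members had mean counts between 100.1 and 10526 (median 215, quartiles 145 and 369), and 20 of them had 1000 or more. Scaled to library size (CPM, library totals scaled with TMM factors), the median member had 282 CPM, and per kb of exons 63.2 CPM. The 10 highest members held 21.1% of the counts of all members, and *Gm20721* alone 7.31%. Counts were low for most genes on the other side. The main opposite gene, defined as the one sharing the most exonic bases, had a median of 30.7 counts, was below 10 counts for 119 members and was exceeded by the member in 342 of 396 cases, with a median ratio of 9.41. The members share between 204 and 6173 bases (median 875), which is 18.3% of their exonic bases in the median, and 9 members lie under opposite exons with every exonic base. Of the bases shared with the main opposite gene, 68.6% were 3′ UTR in the member, 13.2% coding and 4.40% 5′ UTR.

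Just inside the count limit lay *Cox6c* (100.1 counts), *Ikzf5* (100.1) and *Slc6a20b* (100.2), and just outside *Mns1* (99.7), *Rac1* (99.6) and *Pfkp* (99.5). For the shared bases, *Eif2b4* (204), *Prg4* (204) and *Ccdc84* (206) lay inside, and *Plek* (199), *Hars2* (195) and *Gm10197* (194) outside. With a limit of 50 counts the rule would take 610 genes, and with 200 counts 223. Compared with the 1204 genes that also share at least 200 bases but stayed below 100 counts, the members overlap over more bases (median 875 against 446.5) and more of them are convergent (80.6% against 57.6%). The divergent layout was less common among them (9.60% against 29.7%). The counts of the main opposite genes were alike in both sets, with medians of 30.7 and 30.2.

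**Figure D2:**
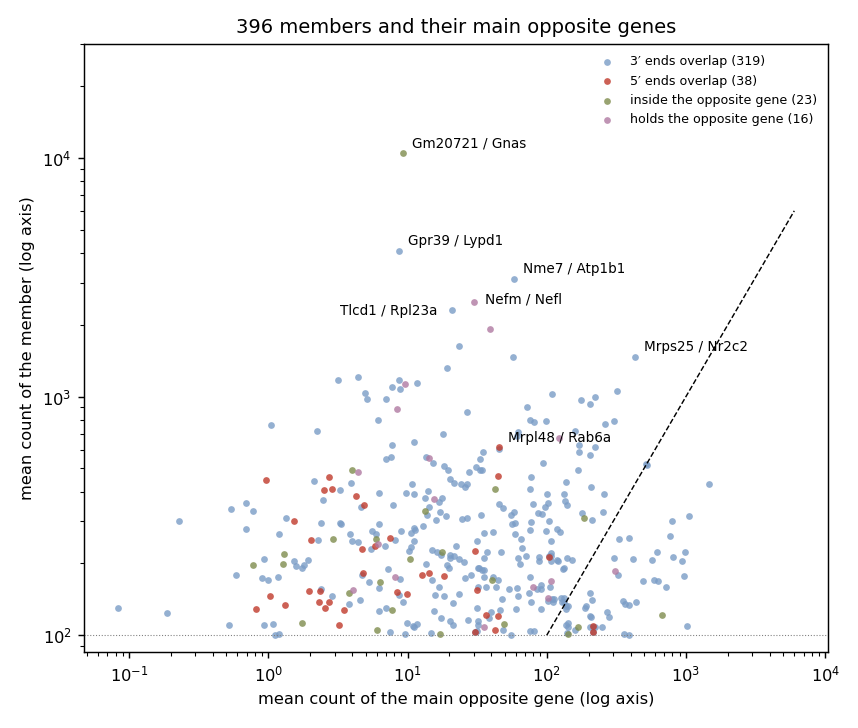
Mean count over the 48 samples of each of the 396 members (vertical log axis) against that of its main opposite gene (horizontal log axis), with the dashed line marking equal counts and the dotted line the limit of 100 counts. Colours give the layout of the pair, and 342 points lie left of the line of equal counts, where the member is the higher gene.

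The functions of the 10 members with the most counts, and of most genes opposite to them, are given from textbook knowledge and without a test. *Gm20721* (mean 10526 counts) lies in *Gnas* (9.21 counts). *Gpr39* (4087), which encodes a zinc-sensing receptor, lies opposite to *Lypd1* (8.69), whose product binds nicotinic acetylcholine receptors. *Nme7* (3115), of the nucleoside diphosphate kinase family, meets *Atp1b1* (58.3), which encodes a beta subunit of the sodium pump. *Igsf8* (1926) encodes a membrane protein of the immunoglobulin superfamily.

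In the pair *Nefm* (2486) and *Nefl* (30.1), both genes encode neurofilament subunits of the axon, and *Nefm* is the member. *Tlcd1* (2309) lies opposite to the ribosomal protein gene *Rpl23a* (20.8), and *Map3k15* (1622) opposite to *Pdha1* (23.4), a subunit of pyruvate dehydrogenase. *Mrps25* (1467), a protein of the mitochondrial ribosome, meets *Nr2c2* (432), an orphan nuclear receptor. *Nr1d1* (1464) encodes the clock repressor REV-ERB alpha and meets *Thra* (57.5), the thyroid hormone receptor alpha, and *Phykpl* (1315), an enzyme of hydroxylysine breakdown, meets *Hnrnpab* (19.1), an RNA-binding protein.

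Across mice the level of the highest member ranged as follows. *Gm20721* had 12397 to 14388 CPM in *Tph2*+/+ C (median 13743), 12401 to 16126 in *Tph2*+/+ MS (median 14003), 12589 to 16339.6 in *Tph2*+/- C (median 13961), 11775 to 16716 in *Tph2*+/- MS (median 13377), 10310.2 to 15316 in *Tph2*-/- C (median 13552) and 11672 to 16457 in *Tph2*-/- MS (median 13525). The 6 groups overlapped, and none stood apart. Of the 10 highest members, *Gpr39* varied most, with 3721 to 9689 CPM and a coefficient of variation (CV) of 18.6%, and *Mrps25* least. *Mrps25* had 1664 to 2216 CPM over all mice, a CV of 6.03%, and *Nr1d1* 1319 to 2564 CPM, a CV of 13.97%. The median CV was 12.1% over the members and 13.4% over the 831 other tested genes with at least 100 counts. It ranged from 5.40% in *Erp29*, which encodes a chaperone of the endoplasmic reticulum, to 40.8% in *Zmat5*, a zinc finger protein of the minor spliceosome.

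By textbook function, 225 of the main opposite genes were placed in 9 groups, and 171 were not placed. These groups were assigned after the members were known. Genes for transcription, chromatin and DNA repair were the most numerous (50 members lie opposite to one), followed by protein folding and degradation (34), RNA processing (31), mitochondrial proteins (28), membrane traffic (20), kinases and signalling (18), pumps, transporters, channels and receptor signalling (16), the cytoskeleton (15) and the ribosome and translation (13). The members opposite to genes for pumps, transporters, channels and receptors had the highest median count, 332, and those opposite to membrane traffic genes 329.9. The members opposite to genes for transcription and chromatin had the lowest median of the 9 groups, 202.

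Few of the opposite genes belonged to the lists chosen for brain. Of 36 genes abundant in brain none was a member and 2 lay opposite to one. *Adar*, the enzyme that edits double-stranded RNA (7.75 counts), lies opposite to *Chrnb2* (628 counts), a nicotinic acetylcholine receptor subunit that had 664 to 1041 CPM over the 48 mice. Members that were themselves on a list were *Nefm*, *Cox6c* of the respiratory chain and the microglial receptor gene *Csf1r*.

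Both genes of 56 pairs were members. The ratio of their mean counts was between 1.01 and 9.36 (median 2.03) and was below 2 in 27 pairs. *Smarcd3*, a subunit of a chromatin remodelling complex, and *Chpf2*, an enzyme of chondroitin synthesis, were nearest to each other (523 and 518 counts over 2466 shared bases), and *Smarcd3* was the higher gene in 27 of 48 mice. *Mrps25* and *Nr2c2* share 4590 bases, and *Mrps25* was higher in 48 of 48 mice, with a ratio of 2.93 to 4.53. *Stk16*, a Golgi kinase, exceeded the tubulin gene *Tuba4a* by 7.17 to 11.7 times in each mouse.

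For the groups, edgeR's quasi-likelihood test was run over 6781 genes, which included 396 of 396 members and 302 of their main opposite genes. A gene was said to pass when its unadjusted p was under 0.01 and its lg2FC (log2 fold change) was over 0.2 in size, and in the F test over all groups by the p alone. No member had an adjusted p below 0.05 in any comparison with edgeR or with DESeq2, where 0% to 0.103% of all genes had one (0.0147% for *Tph2*-/- against *Tph2*+/+, in C as in MS), and the lowest was 0.0855 (edgeR). P-values measure the spread between mice, whose litters were not given in the labels.

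In the F test over the 6 groups 5 of 396 members passed, against 2.3% of all genes tested. They were *Gm10642*, *Mrpl48*, *B930094E09Rik*, *Gm26566* and *E130208F15Rik*. *Mrpl48* encodes a protein of the mitochondrial ribosome, the others are predicted genes, and 0.107 was the lowest of their adjusted p-values (edgeR). Of the 831 other genes with at least 100 counts 22 passed. At an unadjusted p below 0.05 there were 14 members (3.54%), against 7.05% of all genes.

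For GE1, the effect of MS in *Tph2*+/- less its effect in *Tph2*+/+, 8 members passed and all 8 were lower, against 2.58% lower and 0.383% higher among all genes tested. They were *Gm10642*, *Mrpl48*, *Gm26566*, *B930094E09Rik*, *Pigp*, *Gpn3*, *Mfsd11* and *Shc4*. The share of members, 2.02%, was near that of all genes, 2.96%, and the median lg2FC lay within 0.01 of 0 both for the members and for all genes. The 8 members were not spread over the layouts. A total of 7 of them are divergent genes, whose 5′ ends overlap, although only 38 of the 396 members have this layout.

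*Mrpl48* is divergent from *Rab6a*, a GTPase of Golgi transport, with which it shares 708 bases of its 5′ UTR. It had 601 to 771 CPM in *Tph2*+/+ C (median 707), 635 to 1343 in *Tph2*+/+ MS (median 759), 694 to 1391 in *Tph2*+/- C (median 858) and 600.0 to 1008 in *Tph2*+/- MS (median 756). In *Tph2*-/- it had 609 to 888 CPM in C (median 685) and 635 to 959 in MS (median 741). The 6 groups overlapped, and 4 *Tph2*+/+ MS, 4 *Tph2*+/- C, 2 *Tph2*+/- MS, 2 *Tph2*-/- C and 3 *Tph2*-/- MS mice lay above all *Tph2*+/+ C mice. The lg2FC was 0.36 (standard error 0.13) for MS in *Tph2*+/+ and -0.33 (0.13) in *Tph2*+/-. The GE1 lg2FC was -0.68 (0.19), with an adjusted p of 0.0982 (edgeR). *Rab6a* itself had 45.5 counts and a GE1 lg2FC of -0.69 (0.29).

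*Gm10642*, a predicted gene, is divergent from *Mindy2*, a deubiquitinating enzyme, over 902 bases. It had 84.3 to 158.1 CPM in *Tph2*+/+ C (median 114), 121 to 249.9 in *Tph2*+/+ MS (median 168), 112 to 258 in *Tph2*+/- C (median 139), 104 to 155 in *Tph2*+/- MS (median 137), 95.1 to 134 in *Tph2*-/- C (median 115) and 106.03 to 151.1 in *Tph2*-/- MS (median 127). Of the *Tph2*+/+ MS mice 5 of 8 and of the *Tph2*+/- C mice 3 of 8 lay above the highest *Tph2*+/+ C mouse, and the groups overlapped. Its lg2FC was 0.51 (0.14) for MS in *Tph2*+/+ and -0.74 (0.19) for GE1, with an adjusted p of 0.0855 (edgeR). *Mindy2* had a GE1 lg2FC of -0.02 (0.21).

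*Mfsd11*, a membrane protein of the major facilitator family, is divergent from *Srsf2*, a splicing factor. It had 134 to 269 CPM in *Tph2*+/+ C (median 210.1), 178 to 422 in *Tph2*+/+ MS (median 250.2), 175 to 391 in *Tph2*+/- C (median 242) and 187.8 to 417 in *Tph2*+/- MS (median 221). In *Tph2*-/- it had 153.4 to 256 CPM in C (median 211) and 152 to 329 in MS (median 217.8). Replicates 2, 7 and 8 of *Tph2*+/+ MS, replicates 4, 6 and 7 of *Tph2*+/- C, replicate 8 of *Tph2*+/- MS and replicates 2 and 5 of *Tph2*-/- MS lay above all *Tph2*+/+ C mice. The GE1 lg2FC was -0.70 (0.25), with an adjusted p of 0.267 (edgeR).

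The other members that passed for GE1 are given by their lg2FC. *Pigp*, of the synthesis of GPI anchors, had -0.54 (0.18), *Gpn3*, a GTPase of RNA polymerase assembly, -0.54 (0.19), and the predicted genes *Gm26566* -0.56 (0.15) and *B930094E09Rik* -1.01 (0.29). They were chosen for a negative GE1, and for each of them the median was higher in *Tph2*+/+ MS than in *Tph2*+/+ C and higher in *Tph2*+/- C than in *Tph2*+/- MS. In *Pigp* it was 594, 647, 649.9 and 583 CPM in the order *Tph2*+/+ C, *Tph2*+/+ MS, *Tph2*+/- C and *Tph2*+/- MS. In *B930094E09Rik* it was 144.5, 199.0, 193.5 and 160.6 CPM. *Shc4*, a signalling adaptor that holds *Eid1* within its span, shares 527 bases, all in its 5′ UTR, and had a GE1 lg2FC of -0.49 (0.18).

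**Figure D3:**
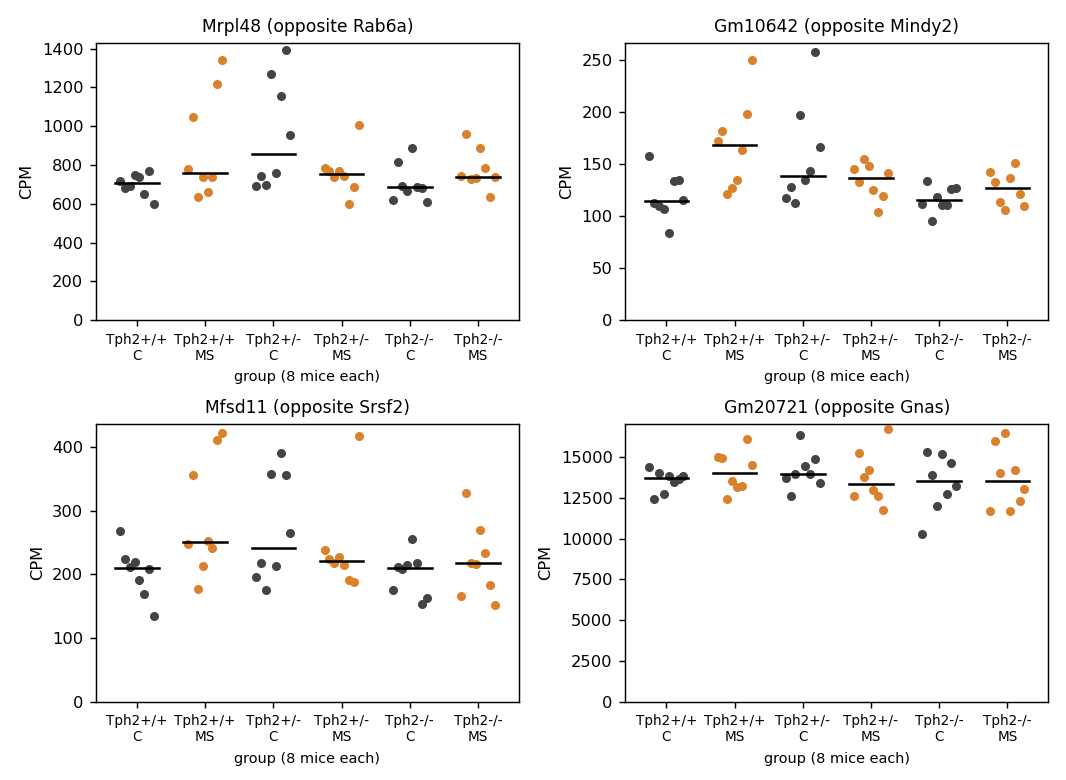
CPM of *Mrpl48*, *Gm10642*, *Mfsd11* and *Gm20721* in each of the 48 mice (points, grey for C and orange for MS) with the median of each group (bars), on linear axes from 0. In the first 3 genes single mice of *Tph2*+/+ MS and *Tph2*+/- C lie above the *Tph2*+/+ C mice, up to 1391 CPM in *Mrpl48*. In *Mrpl48* and *Mfsd11* single mice of *Tph2*+/- MS and *Tph2*-/- MS also lie above them, and in *Mrpl48* single mice of *Tph2*-/- C too. *Gm20721* lies between 10310.2 and 16716 CPM in every group.

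For MS in *Tph2*+/+ 9 members passed and all 9 were higher, against 2.67% of all genes tested, 2.21% higher and 0.457% lower. They were *Gm10642*, *Stx18*, *Kxd1*, *Gabpa*, *Gpn3*, *Mfsd11*, *Gm26566*, *B930094E09Rik* and *Mrpl48*, and 8 of them are divergent. Their adjusted p-values (edgeR) were 0.156 or more. *Gabpa*, a transcription factor of nuclear genes for mitochondria, is divergent from *Atp5j*, a subunit of the ATP synthase. It had 141 to 211 CPM in C (median 160) and 149 to 422 in MS (median 195), so that the groups overlapped, and a lg2FC of 0.53 (0.17). *Kxd1*, of a complex that positions lysosomes, is divergent from *Fkbp8* and had 218.3 to 451 CPM in C (median 255), 282 to 524 in MS (median 354) and a lg2FC of 0.44 (0.14). *Stx18*, a SNARE protein of the endoplasmic reticulum, is the convergent member among the 9, with 376 to 535 CPM in C (median 445), 451 to 701 in MS (median 524) and a lg2FC of 0.28 (0.09).

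For MS in *Tph2*-/- 3 members passed, all higher, against 0.811% of all genes tested and 0.428% that were higher. *Endog*, a mitochondrial nuclease that lies opposite to *Spout1*, had 125 to 164 CPM in C (median 147) and 134 to 231 in MS (median 178), with a lg2FC of 0.27 (0.09). *Pomgnt1*, which builds the sugar chains of dystroglycan, had 0.31 (0.11), and *Serhl*, opposite to *Rrp7a*, had 0.22 (0.08). The groups overlapped in all 3. The adjusted p (edgeR) was 0.881 for each, and no divergent member was among them. The lg2FC of 257 of the 396 members was positive here, as was that of 51.6% of all genes.

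For GE2, the effect of MS in *Tph2*-/- less that in *Tph2*+/+, 0 members passed in edgeR's and in DESeq2's test, against 0.516% of all genes, and 3 (0.758%) had an unadjusted p below 0.05, against 3.64% of all genes. For MS in *Tph2*+/- 0 members passed in both tests, against 0.678% of all genes, and 7 (1.77%) had an unadjusted p below 0.05, against 3.95% of all genes.

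Between genotypes, 14 members passed in any of the 6 comparisons within a rearing condition, against 7.06% of all genes. Among controls, 5 members were higher in *Tph2*+/- than in *Tph2*+/+ (2.14% of all genes passed, and 1.75% were higher), namely *Mrpl48* with a lg2FC of 0.45 (0.13), *E130208F15Rik* with 0.44 (0.14), *Gm10642* with 0.41 (0.14), *B930094E09Rik* with 0.64 (0.21) and *Plcxd1* with 0.24 (0.09). A total of 7 were lower in *Tph2*-/- than in *Tph2*+/- (2.67% of all genes passed, and 2.24% were lower). These were the first 4 of the former, *Gm26566*, *B430305J03Rik* and *Nr1d1*, the last with a lg2FC of -0.29 (0.10). The comparisons share the *Tph2*+/- C mice. Without the 7 controls whose animal numbers were highest, 0 members passed in the first comparison (0.591% of all genes, edgeR) and 1 in the second (0.851%), and without the 4 libraries rich in *Gm42418* 12 passed in the first (3.12%), all higher. Between *Tph2*-/- and *Tph2*+/+ controls 0 members passed in edgeR's and in DESeq2's test (0.619% of all genes), and 3 (0.758%) had an unadjusted p below 0.05, against 3.88% of all genes.

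In MS mice, *Stx18* was lower in *Tph2*+/- than in *Tph2*+/+ with a lg2FC of -0.27 (0.09), the member that passed there against 1.24% of all genes (0.546% higher and 0.693% lower). Between *Tph2*-/- and *Tph2*+/+ 6 members passed (2.06% of all genes, 0.855% higher and 1.21% lower). *Zmat5* with 0.74 (0.25) and *Lrp3*, of the LDL receptor family, with 0.40 (0.13) were higher in *Tph2*-/-. *Pigp* with -0.39 (0.13), *Gm10642* with -0.41 (0.13), *Exosc5*, a subunit of the RNA exosome, with -0.55 (0.19) and *Ino80e*, of a chromatin remodeller, with -0.30 (0.11) were lower. Between *Tph2*-/- and *Tph2*+/- 0 members passed in edgeR's and in DESeq2's test (0.516% of all genes), and 2 (0.505%) had an unadjusted p below 0.05, against 3.30% of all genes.

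The layout of the pair was not used by the rule. It was taken up after the values were seen, and its counts are given without a test. Of the 38 divergent members 7 passed for GE1 (18.4%) and 8 for MS in *Tph2*+/+ (21.1%), against 0 and 1 of the 319 convergent members, and DESeq2 gave the same numbers. GE1 contains the effect of MS in *Tph2*+/+ with its sign reversed. Both comparisons use the same *Tph2*+/+ mice and are not separate findings. At an unadjusted p below 0.05 there were 8 convergent members for GE1 (2.51%), against 7.95% of all genes. The median GE1 lg2FC of the 38 was -0.16, with 32 of them negative, and their median for MS in *Tph2*+/+ was 0.11, with 33 positive. For the 319 convergent members both medians were within 0.01 of 0 on the log2 scale. For MS in *Tph2*-/- the 38 had a median of 0.11 with 31 positive, none passed with edgeR or DESeq2 and 2 had an unadjusted p below 0.05 (5.13% of all genes did), and for *Tph2*-/- less *Tph2*+/- among controls -0.12 with 30 negative.

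The layouts were also counted in genes outside the rule, in the same libraries as the members. These counts are therefore not a separate check of the members. Of the 1204 genes of any layout that share at least 200 bases but had under 100 counts, 309 have a member as main opposite gene. Whether the counts rest on single libraries was not tested for genes outside the rule. Among 190 tested divergent genes that share at least 200 bases but had under 100 counts, 21 passed for GE1, all lower (11.1%), and 22 for MS in *Tph2*+/+, all higher (11.6%), while 4 and 5 of 486 convergent ones did. Among 189 divergent genes with 1 to 199 shared bases 8 (4.23%) and 4 (2.12%) passed, and among 340 convergent ones 3 (0.882%) and 5 (1.47%). Among all genes the shares were 2.96% and 2.67%. Of 2078 protein-coding genes with no opposite base of a protein-coding gene 41 (1.97%) and 42 (2.02%) passed.

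**Figure D4:**
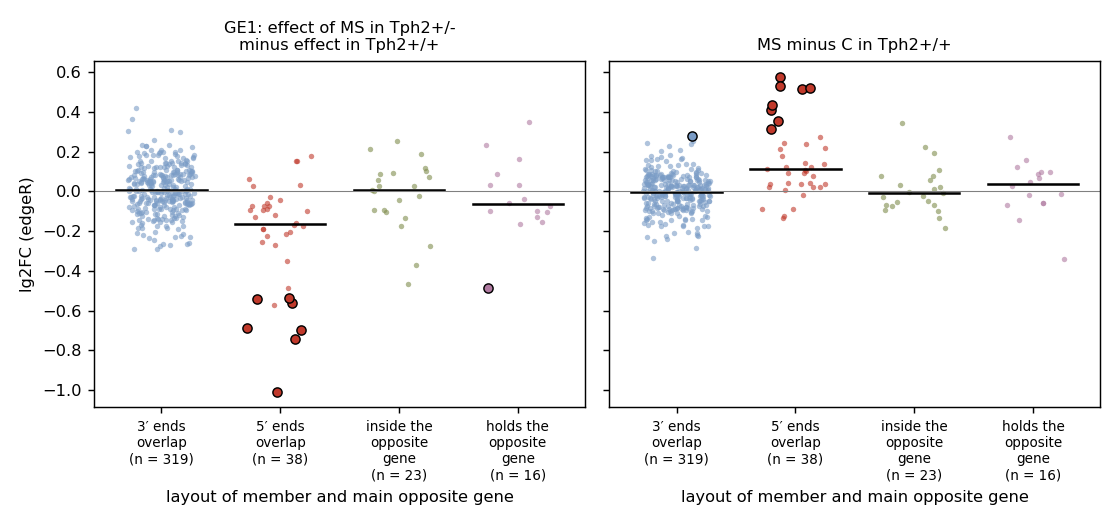
The lg2FC of each member (points) by the layout of the pair, for GE1 (left) and for MS minus C in *Tph2*+/+ (right), with the median of each class (bars) and outlined points for members that passed. The 38 members whose 5′ ends overlap have medians of -0.16 and 0.11, and those whose 3′ ends overlap lie about 0.

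The 38 divergent members had a median of 166 counts and their main opposite genes 4.83. They share 204 to 3148 bases with all their opposite genes (median 388.5), and 53.2% of the bases shared with the main one are 5′ UTR in the member. Promoter windows of 3 of them that passed are shown because the overlap of a divergent pair lies at the start sites. The sequences are from RefSeq on GRCm38.p6 and run from 250 bases before to 30 bases after the start on the strand of the gene, with each CG in capitals. They lie on chr7:100607593-100607872 (minus strand) for *Mrpl48*, chr5:122372258-122372537 (plus strand) for *Gpn3* and chr16:84834874-84835153 (plus strand) for *Gabpa*, with 42, 32 and 19 CG.
Mrpl48: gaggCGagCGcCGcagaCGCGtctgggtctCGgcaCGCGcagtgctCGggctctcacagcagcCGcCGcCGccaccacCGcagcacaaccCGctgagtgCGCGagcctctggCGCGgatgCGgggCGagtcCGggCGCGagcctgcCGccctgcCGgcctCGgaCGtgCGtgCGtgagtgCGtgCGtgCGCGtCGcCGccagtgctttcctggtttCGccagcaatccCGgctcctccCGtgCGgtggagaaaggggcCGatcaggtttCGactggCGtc
Gpn3: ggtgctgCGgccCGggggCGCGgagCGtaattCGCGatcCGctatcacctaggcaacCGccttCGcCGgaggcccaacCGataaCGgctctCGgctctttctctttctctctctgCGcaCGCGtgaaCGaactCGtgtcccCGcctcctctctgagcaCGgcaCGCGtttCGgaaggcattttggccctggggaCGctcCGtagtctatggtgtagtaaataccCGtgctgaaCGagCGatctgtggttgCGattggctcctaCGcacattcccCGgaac
Gabpa: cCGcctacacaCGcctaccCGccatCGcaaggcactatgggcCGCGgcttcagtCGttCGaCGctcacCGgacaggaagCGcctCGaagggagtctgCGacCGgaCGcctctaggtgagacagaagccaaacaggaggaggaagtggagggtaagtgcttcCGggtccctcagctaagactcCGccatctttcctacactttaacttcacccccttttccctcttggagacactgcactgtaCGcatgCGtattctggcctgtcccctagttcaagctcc
Of these bases, 227 of *Gabpa* also lie in the window of *Atp5j*, opposite to it, and 43 of *Mrpl48* in that of *Rab6a*, and most of those of *Gpn3* lie in that of *Fam216a*.

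For 24 of the 38 members the table held a window of both genes, and for 17 of these (with *Gpn3* and *Fam216a*, members opposite to each other, counted each) the windows of 300 bases shared 63 to 288 bases (median 237). The median number of CG per window was 21.5 for the 26 divergent members with one, 23 for 32 of their opposite genes, 20 for 280 of the 358 other members and 7 for all 27025 genes. The letters TATAAA on the strand of the gene were in 2.63% of the windows of divergent members, 4.48% of those of other members and 8.32% of all.

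For each mouse the median over the 38 members of log2(CPM divided by the mean CPM of the gene) was taken. It was highest in replicate 8 of *Tph2*+/+ MS (0.32), replicate 4 of *Tph2*+/- C (0.27), replicate 7 of *Tph2*+/+ MS (0.27), replicate 2 of *Tph2*-/- MS (0.21), replicate 7 of *Tph2*+/- C (0.16) and replicate 8 of *Tph2*+/- MS (0.16). The standard deviation over the 48 mice was 0.12, against 0.06 for the 319 convergent members, whose median rests on more genes. The medians of the 6 groups lay between -0.10 (*Tph2*-/- C) and 0.02 (*Tph2*+/+ MS), and the groups overlapped.

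The share of reads mapped to several places was 15.1% to 16.1% in 5 libraries, replicates 7 and 8 of *Tph2*+/+ MS, replicate 8 of *Tph2*+/- MS and replicates 2 and 4 of *Tph2*-/- MS, and 9.99% to 14.3% in the other 43. All 5 were among the 8 mice with the highest value of the 38 divergent members, and no C library was among the 5. The 3 highest values of the convergent members were also in these libraries, in replicate 4 (0.14) and replicate 2 (0.12) of *Tph2*-/- MS and in replicate 8 of *Tph2*+/- MS (0.11). Without these 5 libraries, a choice made after the data were seen, 9 of all members passed for GE1, 6 lower and 3 higher. The share of all genes for GE1 in this fit is not given, so the count is not read as a result about the members. Of the 38 divergent members 6 passed for GE1 and 0 for MS in *Tph2*+/+, where their median lg2FC was 0.07 with 26 positive. What lies behind the share of such reads was not tested.

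Single libraries also set the counts. The shares of all genes in these fits are not given, so a move of the whole table cannot be told apart from one of the members. Without replicate 7 or replicate 8 of *Tph2*+/+ MS 1 of all members passed for MS in *Tph2*+/+, and without replicate 6 or 8 of *Tph2*+/+ C 4 and 5 did. For GE1 4 members passed without replicate 8 of *Tph2*+/+ MS or without replicate 7 of *Tph2*+/- C, and 15 without replicate 8 of *Tph2*+/- MS. For MS in *Tph2*-/- 0 members passed with edgeR without replicate 1 of C or without replicate 2 or 4 of MS. The GE1 call of *Gm10642*, *Mrpl48*, *Gm26566* and *B930094E09Rik* was kept whichever 1 library was left out, while over the 48 such fits that of *Shc4* was lost in 17, of *Gpn3* in 14, of *Mfsd11* in 10 and of *Pigp* in 2. For MS the call of *Mrpl48* in *Tph2*+/+ and that of *Serhl* in *Tph2*-/- were each lost in 36 of 48 fits, and in the F test that of *Gm26566* was lost in 29, of *E130208F15Rik* in 19, of *B930094E09Rik* in 14 and of *Mrpl48* in 3.

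**Figure D5:**
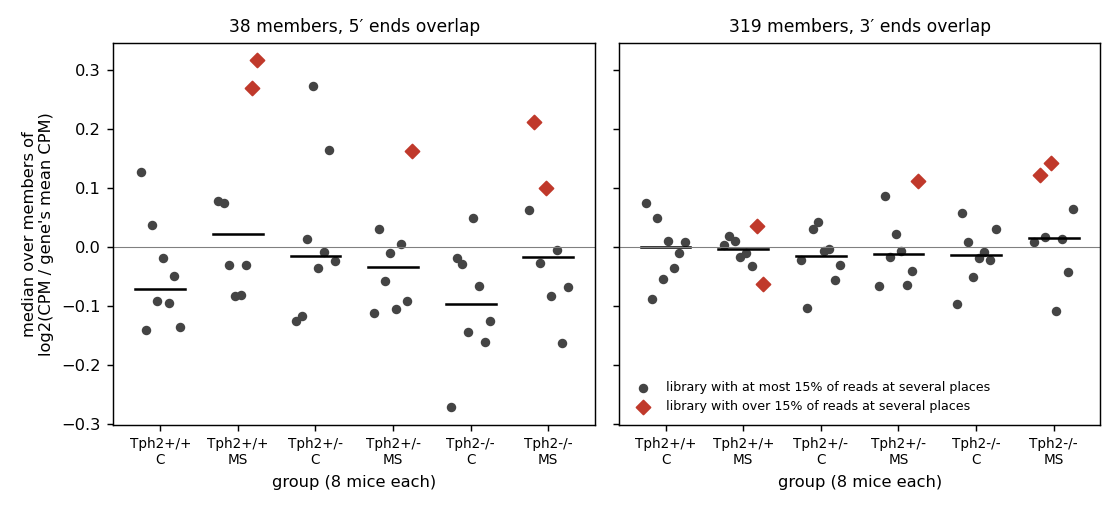
Median over members of log2(CPM / mean CPM of the gene) in each mouse, for the 38 members whose 5′ ends overlap (left) and the 319 whose 3′ ends overlap (right), with group medians (bars). Red diamonds are the 5 libraries with over 15% of reads mapped to several places. The left values spread from -0.27 to 0.32, and the right values less.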

How the data were processed

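RNA of the amygdala from 48 mice was sequenced in pairs from strand-keeping libraries. The submitters' processing notes name STAR, HTSeq, DESeq2 and GRCm38.p5, without versions. The deposited values are raw counts of read pairs for 48440 genes, not normalized by the authors, and 5 special entries for unassigned pairs were left out here.

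Exons and layouts came from GENCODE release M21, which holds 48058 of the genes. Transcript ends were read from its transcripts and promoter windows from RefSeq (GRCm38.p6). A pair was called convergent or divergent where the 3′ or the 5′ ends of the gene spans overlap. Genes passing edgeR's filterByExpr were tested without *Lars2*, as in the study, which left 6781 of 32234 genes with a count. After TMM scaling, edgeR 4.0.16 (R 4.3.3) was fitted with 1 coefficient for each group taken from the labels. The quasi-likelihood F test gave p for each contrast, adjusted by Benjamini-Hochberg over these genes. A standard error follows each lg2FC in parentheses. DESeq2 1.42.0 was an alternative. Tables were made with Python 3.11.15 and pandas 2.3.3. The fit was tested on simulated counts.

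At the median total of counts on genes 3 counts correspond to 4.06 CPM without TMM scaling, a floor that covers counting error only.

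The members, lists and tests were chosen with earlier results of these data known, and the function groups and the split by layout after the values were seen. Named with values were the 10 members with the highest mean, the 8 with the smallest p in the F test, those passing in a contrast (at most 8 by p, to which the 9th for MS in *Tph2*+/+ was added), members just at a limit, and members opposite to a listed gene. Of the pairs in which both genes are members only a few are named, and some items are not reported here. Further alternatives were another normalization, other filters, robust fitting, a replicate block, and leaving out libraries.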

Additional observations from a re-analysis of the deposited data

Results flagged for a closer look

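In 25 members with values in each group, 150 groups of 8 mice were searched for a mouse far from the others, by the gap to its nearest neighbour over the whole range (Dixon's test at 95%). Chance gives about 1 in 20 groups where these are independent, and 15 of 150 were found. Here the groups are not independent, because all members were measured in the same mice. Some members were also chosen for passing a contrast, so that no excess can be read from the number found. In replicate 8 of *Tph2*+/- MS the highest value stood apart in 7 members, of which the first 3 are divergent. There *Gabpa* had 335 CPM (next 212), *Mfsd11* 417, *Mrpl48* 1008 (next 783), *Nr1d1* 2559 (next 1999.0), *Pomgnt1* 255 (next 196.8), *E130208F15Rik* 217 (next 150.1) and *Igsf8* 3927 (next 2940). This library is one of the 5 with over 15% of reads mapped to several places. Of the other 4, replicate 8 of *Tph2*+/+ MS was high in *Pigp* (1113 CPM, next 771), replicate 7 of *Tph2*+/+ MS in *Phykpl* (2000 CPM, next 1712) and replicate 2 of *Tph2*-/- MS in *Shc4* (1408 CPM, next 1154). Each of the other libraries found stood apart in 1 member. *Gpr39* was highest in replicate 8 of *Tph2*-/- MS (9689 CPM, next 6362) and lowest in replicate 4 of *Tph2*+/- MS (3721 CPM, next 5043). *Mrps25* was highest in replicate 2 of *Tph2*+/- MS (2165 CPM, next 1945), *Map3k15* lowest in replicate 5 of *Tph2*-/- MS (1618 CPM, next 2199) and *Gm26566* lowest in replicate 6 of *Tph2*+/- MS (372 CPM, next 426).

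The effect of MS differed between *Tph2*+/- and *Tph2*+/+ at the nominal p in 8 members (2.02%), each tested as the GE1 contrast in edgeR, and in 2.96% of all genes. The lg2FC was -0.74 in *Gm10642*, -0.68 in *Mrpl48*, -0.56 in *Gm26566*, -1.01 in *B930094E09Rik*, -0.54 in *Pigp*, -0.54 in *Gpn3*, -0.70 in *Mfsd11* and -0.49 in *Shc4*. None of them passed the adjustment over all genes.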

How the results depend on the processing

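With DESeq2 in place of edgeR, DESeq2's size factors, a mean of at least 10 counts, robust fitting or without *Gm42418*, each count of members passing stayed within 1.5 times that reported. Such counts are totals of higher and lower members, and the direction can differ from that reported. Without a gene filter, 14 members passed the F test (2.00% of all genes did), 13 GE1 (1.75%), 2 GE2 (1.01%), 2 MS in *Tph2*+/- (1.01%) and 1 MS in *Tph2*-/- (0.959%). Without the 4 libraries rich in *Gm42418*, 1 passed GE2 (0.370%), 3 MS in *Tph2*+/- (1.02%) and 0 MS in *Tph2*-/- (0.503%). When 7 controls, those whose animal numbers were highest, were left out, 1 passed the F test (0.951%), 4 GE1 (1.59%), 4 MS in *Tph2*+/+ (2.03%) and 9 any genotype pair. Without the 5 libraries with over 15% of reads mapped to several places, chosen after seeing the data, 2 passed GE2 (0.502% of all genes did), 1 MS in *Tph2*+/+ (0.753%), 8 MS in *Tph2*+/- (2.39%), 0 MS in *Tph2*-/- (0.635%) and 26 any genotype pair, of which 15 between *Tph2*-/- and *Tph2*+/- controls (3.77%). With only its own groups in the fit, 0 passed MS in *Tph2*-/- (0.697%). Between *Tph2*+/- and *Tph2*+/+ controls, where 5 had passed, the count was 11 without a gene filter (7 higher and 4 lower), 12 without the *Gm42418*-rich libraries, 12 without the 5 multi-mapped ones (10 higher and 2 lower) and 0 without the 7 controls. Between *Tph2*-/- and *Tph2*+/- controls, where 7 had passed, it was 12, 7, 15 and 1. Between *Tph2*+/- and *Tph2*+/+ MS mice, where 1 had passed, it was 7, 1, 2 and 2. Between *Tph2*-/- and *Tph2*+/+ controls, where 0 had passed with edgeR (3 at an unadjusted p below 0.05, and 0 with DESeq2), it was 0, 0, 1 and 1, and between *Tph2*-/- and *Tph2*+/- MS mice 1 without the 5 multi-mapped libraries. The cause was not tested in these cases. Where a count stands without a percentage, the share of all genes in that fit is not given. A move of the whole table then cannot be told apart from one of the members.

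Leaving out 1 library gave 1 to 10 members for the F test, 4 to 15 for GE1, 0 to 1 for GE2, 1 to 11 for MS in *Tph2*+/+, 0 to 3 for MS in *Tph2*+/-, 0 to 5 for MS in *Tph2*-/- and 9 to 18 for any genotype pair. These ranges are of members only, without the share of all genes, and may reflect moves of the whole table. For the F test the count was 1 without replicate 4, 6 or 7 of *Tph2*+/- C and 10 without replicate 3 of *Tph2*+/+ MS. The replicate numbers of the labels did not pair the mice (median correlation of same-numbered mice 0.0045, with 21 of 120 pairs over 0.1), and with a replicate block 2 members passed the F test and the other counts stayed within 1.5 times.

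Limits of 50 and 200 counts gave 610 and 223 members. The median level of 215 counts corresponds to 282 CPM and 63.2 CPM per kb. Among the calls of named members under alternatives that do not leave out 1 library, 235 were unchanged, 60 were lost, 5 were gained and none turned its direction.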
